A study of Mus musculus with 4 samples.

Results

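The small leucine-rich proteoglycans are a family of secreted matrix proteins, and 10 of its genes were followed here: Dcn, Bgn, Aspn, Lum, Fmod, Omd, Prelp, Kera, Ogn and Epyc. They were chosen by symbol, as all probe sets annotated to only one of those symbols, and make up 10 of 18193 genes measured through such probe sets. Together they had 21 probe sets: 6 for Fmod, 3 for Bgn, 2 each for Dcn, Ogn, Prelp and Aspn, and 1 each for Lum, Omd, Kera and Epyc. A gene was tested when its brightest probe set had a mean signal over the arrays of at least 47.68, the 40th percentile of all probe sets. That held for 7 members (Dcn, Bgn, Aspn, Fmod, Omd, Prelp and Ogn), while Lum, Kera and Epyc were too dim to test.

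A small leucine-rich proteoglycan has a curved core of leucine-rich repeats that binds collagen, and most members carry sugar chains of the chondroitin, dermatan or keratan sulfate kind. On collagen fibrils they set fibril diameter and spacing, and several also bind growth factors of the TGF-beta family or cell surface receptors. Fibroblasts of skin, tendon and other connective tissues are a main source of decorin, biglycan and lumican, the products of Dcn, Bgn and Lum. The family is divided into classes by sequence: Dcn, Bgn and Aspn form the first, Lum, Fmod, Omd, Prelp and Kera the second, and Ogn and Epyc belong to the third.

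The study asked which genes are regulated by PTIP, a protein with BRCT domains that belongs to histone H3 lysine methyltransferase complexes and is encoded by Paxip1. Mouse embryonic fibroblasts that had been immortalized and had loxP sites around both copies of the gene were infected with a retrovirus. The PTIP -/- group received Cre recombinase, which removes the flanked stretch, and the PTIP +/+ group received the vector without Cre. Both groups therefore started from floxed alleles and shared viral infection and the same puromycin selection in serum-containing medium. RNA from 2 samples of each genotype was hybridised to Affymetrix arrays, 4 in all, with a biotin label. The labels number the samples 1 and 2 within each genotype. They do not say whether a number is a separate culture, infection or day, nor how many fibroblast lines or embryos the cells came from, so the p-values measure only the spread between these samples, which may be technical. With 2 arrays against 2, an exact permutation test of a single value cannot give a two-sided p below 0.333, and the number of arrays limits the precision of every value.

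Paxip1, the targeted gene, had signals of 43.5 (replicate 1) and 74.6 (replicate 2) in PTIP -/-, against 1029.5 and 1040.1 in PTIP +/+, on the brightest of its 4 probe sets. The genotypes did not overlap on any of those probe sets. The median signal of an array ran from 75.8 to 97.8, and between 34.1% and 40.6% of probe sets on an array lay below 47.68. Of the 12 fibroblast markers listed for these cells, 12 passed the level filter, and Col1a1, the type I collagen chain that defines matrix-making fibroblasts, read from 20897.1 to 33210.9. Marker lists of other cells were mixed. Pecam1 of endothelium read 5.4 to 12.3, Ptprc of white blood cells 11.4 to 51.8 and Cdh1 of epithelium 1.4 to 21.7, none of which passed the filter, but 2 of 6 endothelial, 5 of 6 white blood cell and 4 of 6 epithelial markers did. Among these, Kdr read 107.0 to 172.0, Csf1r 218.1 to 278.2 and Epcam 220.4 to 436.1. The smooth muscle markers Acta2 and Tagln, which cultured fibroblasts can also express, read 31131.3 to 34833.4 and 23003.2 to 27685.2.

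Some members are neighbours on the chromosome, and promoter sequence is shown for some members. In RefSeq's annotation of GRCm38.p6, Aspn, Omd and Ogn follow one another on chromosome 13, Dcn, Lum, Kera and Epyc on chromosome 10, and Prelp and Fmod on chromosome 1, whereas Bgn lies by itself on chromosome X. The 250 bases before the annotated start were available for 8 of the 10 members, but not for Dcn and Lum. Aspn, Omd and Ogn are printed because they are adjacent genes of the same strand with unequal differences between the sample numbers, and Bgn because it varied least. All are on the plus strand, 5′ to 3′, from RefSeq's GRCm38.p6. Capitals mark matches, on either strand, to the TATA box TATAAA, the GC box GGGCGG, the TEAD motif GGAATG or the AP-1 motif TGANTCA, where N is any base.
Aspn, chr13:49544193-49544442: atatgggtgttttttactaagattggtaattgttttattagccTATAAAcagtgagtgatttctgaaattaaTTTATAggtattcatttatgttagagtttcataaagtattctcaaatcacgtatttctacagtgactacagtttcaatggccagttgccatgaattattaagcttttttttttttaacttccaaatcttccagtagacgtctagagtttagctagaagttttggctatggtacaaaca
Omd, chr13:49582212-49582461: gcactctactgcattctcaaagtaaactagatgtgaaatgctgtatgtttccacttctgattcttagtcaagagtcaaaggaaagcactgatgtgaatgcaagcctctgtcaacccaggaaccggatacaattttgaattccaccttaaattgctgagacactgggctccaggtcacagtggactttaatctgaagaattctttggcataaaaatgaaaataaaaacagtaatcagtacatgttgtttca
Ogn, chr13:49607765-49608014: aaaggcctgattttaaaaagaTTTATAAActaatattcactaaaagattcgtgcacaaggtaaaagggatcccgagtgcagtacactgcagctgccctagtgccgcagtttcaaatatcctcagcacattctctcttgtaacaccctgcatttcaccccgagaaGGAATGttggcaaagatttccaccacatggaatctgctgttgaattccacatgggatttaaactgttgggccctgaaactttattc
Bgn, chrX:73483351-73483600: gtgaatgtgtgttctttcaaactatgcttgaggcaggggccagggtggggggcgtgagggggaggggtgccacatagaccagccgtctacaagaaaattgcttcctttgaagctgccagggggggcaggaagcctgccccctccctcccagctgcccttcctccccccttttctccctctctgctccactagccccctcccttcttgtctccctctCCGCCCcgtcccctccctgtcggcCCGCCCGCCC

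These 4 windows differed in base composition. Bases G and C made up 30.0% of the Aspn window, 38.4% of the Omd window and 42.0% of the Ogn window, against 64.4% for Bgn and a median of 52.4% over 32851 promoter windows of the same length. The Aspn window held TATAAA on the plus strand 207 bases before the start and on the minus strand 178 bases before it. The Ogn window held that motif on both strands in overlapping letters, 229 and 227 bases before the start, and GGAATG 86 bases before it. Omd had no match to any of the motifs. In Bgn the capitals are GGGCGG read on the minus strand, at 34, 10 and 6 bases before the start, with the last of these matches overlapping each other. Over all windows, TATAAA was in 12.4%, GGGCGG in 32.7%, GGAATG in 12.6% and TGANTCA in 6.75%. Outside these genes, Fmod and Prelp held none of the motifs. A match describes letters in this window only.

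The samples were compared by genotype and by number, and the members differed in which comparison set the arrays apart. Between genotypes, Prelp was lower and Aspn higher in PTIP -/- in both numbers on their main probe sets, Dcn was lower in both, and Bgn and Ogn were nearly level, but no member passed the test. Between numbers, Ogn was 9.20-fold higher in number 2 and passed the test, and Dcn was 13.9-fold higher in number 1 without passing it. On measured signals of 3 members, Dcn, Omd and Ogn, both number differences were wider than both genotype differences. Because these are bulk RNA samples, fewer cells of a type and less RNA per cell cannot be told apart.

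**Figure D1:**
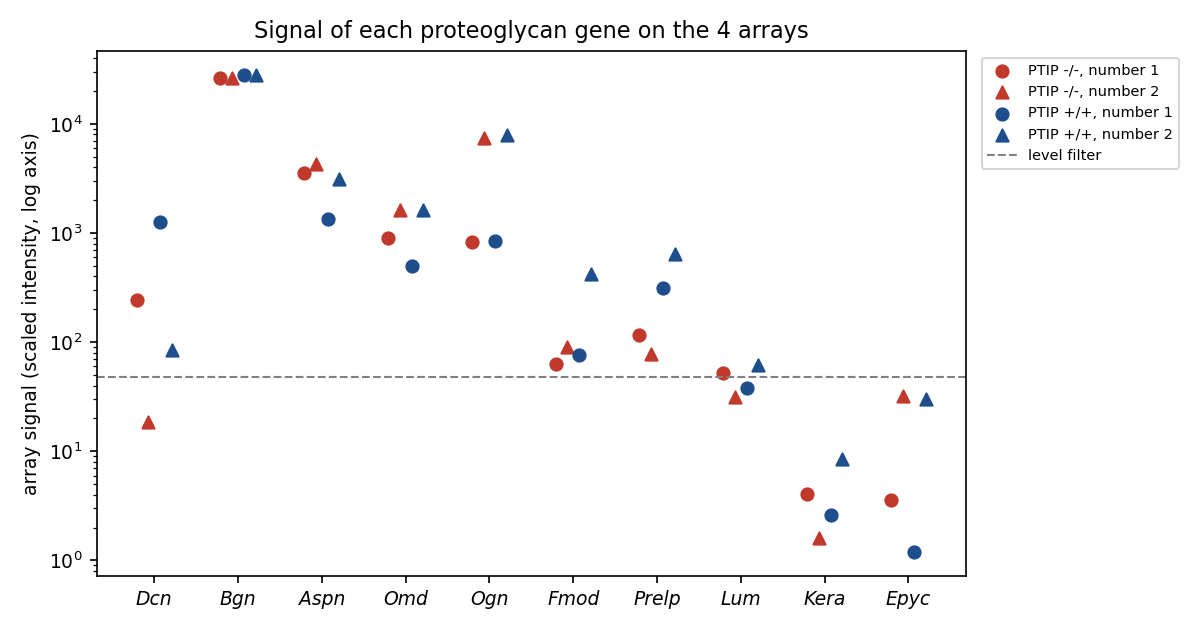
Signal of the brightest probe set of each of the 10 genes on each of the 4 arrays, on a log axis. Red marks are PTIP -/-, blue marks PTIP +/+, circles number 1 and triangles number 2, and the dashed line is the level filter of 47.68. Both triangles of Ogn lie above both circles, the reverse holds for Dcn, and the red marks of Prelp lie below the blue ones.

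Of the first-class members, Dcn varied most over the arrays. Dcn, the gene for decorin, which binds collagen and holds TGF-beta in the matrix, read 242.7 (replicate 1) and 18.7 (replicate 2) in PTIP -/-, against 1266.0 and 84.5 in PTIP +/+, the order used for every gene from here on. Both arrays numbered 1 were above both arrays numbered 2, and within each number the PTIP -/- array was the lower of the pair. The genotypes themselves overlapped, since PTIP -/- replicate 1 lay above PTIP +/+ replicate 2.

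As mean log2 signals, Dcn was 6.07 ± 2.61 (SD, n = 2) in PTIP -/- and 8.35 ± 2.76 (SD, n = 2) in PTIP +/+. The log2 change was -2.28 ± 1.88 (SE), 4.86-fold lower in PTIP -/- on measured signals, with an adjusted p of 0.999 in limma. This error holds the number difference. With the number as a block in the limma fit, the same change had an unadjusted p of 0.000653 and an adjusted p of 0.601. Only 1 of the 4 Dcn signals, that of PTIP -/- replicate 2, lay under the level filter, and with it raised to the filter the fold was at least 3.04. Within number 1 the PTIP -/- array was 5.22-fold lower and within number 2 it was at least 1.77-fold lower.

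The number difference of Dcn was larger. Its mean log2 signal was 9.11 ± 1.69 (SD, n = 2) in number 1 and 5.31 ± 1.54 (SD, n = 2) in number 2, a log2 change of -3.80 ± 1.10 (SE) from number 1 to 2 (limma adjusted p = 0.19). The fold of 13.9 uses measured signals and is at least 8.73 with the dim array raised. It was 15.0-fold higher in number 1 in PTIP +/+ and at least 5.09-fold higher in PTIP -/-. With genotype as a block in the fit, the same change had a limma adjusted p of 0.0412, which passes the threshold of 0.05, and over 14 other settings it ran from 0.0412 to 0.52. That fit with the block called 80 of 12509 genes, against 82 without it. A second Dcn probe set, 1441506_at, read 3.2 to 37.4 and was under the filter on all 4 arrays, so it gave no second measurement.

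Bgn encodes biglycan, a close relative of decorin that also binds Toll-like receptors when released from the matrix. It read 26182.9 and 26334.3 in PTIP -/- against 27902.2 and 28229.4 in PTIP +/+, so that the arrays of each genotype were close together and PTIP -/- was the lower group, an order that quantile normalization turned to a change of 0.06. The log2 change between genotypes was -0.10 ± 0.24 (SE; limma adjusted p = 0.999), a 1.07-fold difference in both numbers. Between the numbers it was 0.01 ± 0.19 (SE; limma adjusted p = 0.975).

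The other Bgn probe sets read 25184.4 to 27205.2 and 23147.5 to 24768.2. On the second of these the genotypes overlapped. All were in the upper part of the arrays' range, whose highest signals were 36579.2 to 40325.4, and whether probes near the top of the scale compress a difference was not tested. No direction is given for Bgn.

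Aspn encodes asporin, a member that carries a run of aspartate at its start and binds TGF-beta and collagen. The brightest of its probe sets gave signals of 3570.0 and 4265.5 in PTIP -/- against 1338.0 and 3133.7 in PTIP +/+. Both PTIP -/- arrays were above both PTIP +/+ arrays, although PTIP +/+ replicate 2 came close. Its log2 signal averaged 11.93 ± 0.18 (SD, n = 2) in PTIP -/- and 11.00 ± 0.87 (SD, n = 2) in PTIP +/+, a log2 change of 0.93 ± 0.50 (SE; limma adjusted p = 0.999), or 1.91-fold.

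Within number 1 Aspn was 2.67-fold higher in PTIP -/- and within number 2 1.36-fold higher. The second Aspn probe set, 1448421_s_at, showed a clearer gap. It read 2369.5 and 2399.4 in PTIP -/- against 809.0 and 1103.4 in PTIP +/+, which is 2.93-fold higher in number 1 and 2.17-fold higher in number 2. In the fit of all probe sets its log2 change of 1.34 had an unadjusted p of 0.00894 and a limma adjusted p of 1.0. Between the numbers the brightest probe set differed by 0.74 ± 0.53 (SE; limma adjusted p = 0.483). The second differed by 0.23 (limma adjusted p = 0.872 over all probe sets).

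**Figure D2:**
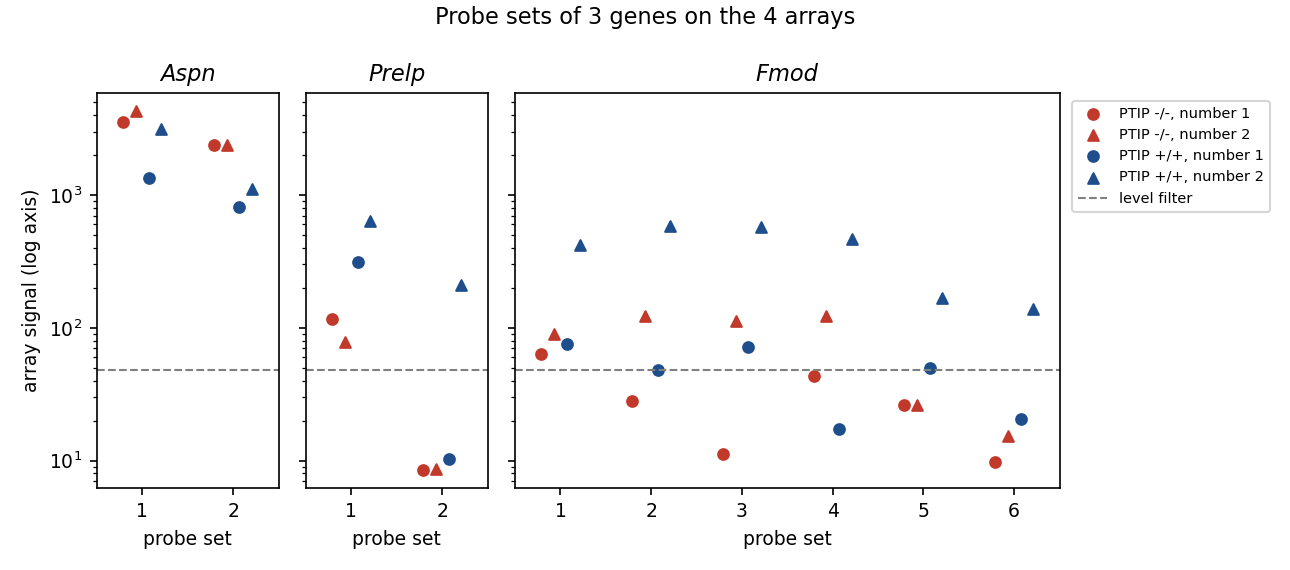
Signals of every probe set of Aspn, Prelp and Fmod on the 4 arrays, on a log axis, with probe sets in order of mean signal, colours for genotype, shapes for number and the dashed line at 47.68. Both Aspn probe sets have the PTIP -/- arrays above the PTIP +/+ arrays, and in all 6 Fmod probe sets PTIP +/+ replicate 2 stands above the other arrays.

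Among the second-class members, Prelp had the smallest genotype p. Its protein has a basic, heparin-binding start and links basement membranes to collagen. Prelp read 116.0 and 78.5 in PTIP -/- against 314.4 and 635.6 in PTIP +/+, with no overlap between the genotypes. The mean log2 signal was 6.58 ± 0.40 (SD, n = 2) in PTIP -/- against 8.80 ± 0.72 (SD, n = 2) in PTIP +/+.

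That is a log2 change of -2.23 ± 0.47 (SE), 4.68-fold lower in PTIP -/-, with an unadjusted p of 0.00798 and an adjusted p of 0.999 in limma. Prelp was 2.71-fold lower in PTIP -/- in number 1 and 8.10-fold lower in number 2. From number 1 to 2 it was 1.48-fold lower in PTIP -/- and 2.02-fold higher in PTIP +/+, which gave a number change of 0.23 ± 1.14 (SE; limma adjusted p = 0.925). The second Prelp probe set, 1416322_at, read 8.5, 8.7 and 10.2 in PTIP -/- replicates 1 and 2 and PTIP +/+ replicate 1 and 210.2 in PTIP +/+ replicate 2. It was above the filter only on the last of these arrays, where PTIP -/- was at least 4.41-fold lower.

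Fmod, for fibromodulin, which binds type I collagen and guides its cross-linking in tendon, read highest in PTIP +/+ replicate 2. The brightest of its probe sets gave signals of 63.1 and 89.5 in PTIP -/- against 75.9 and 421.1 in PTIP +/+. PTIP +/+ replicate 2 stood apart, and PTIP +/+ replicate 1 lay between the PTIP -/- arrays. Its log2 signal averaged 6.23 ± 0.36 (SD, n = 2) in PTIP -/- and 7.48 ± 1.75 (SD, n = 2) in PTIP +/+, a log2 change of -1.25 ± 0.91 (SE; limma adjusted p = 0.999).

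In number 2, the PTIP -/- array was 4.71-fold lower for that Fmod probe set, and 4.76-fold, 5.11-fold, 3.79-fold, at least 3.52-fold and at least 2.90-fold lower for the other 5. In number 1 the brightest probe set was 1.20-fold lower in PTIP -/-, and on each of the others at least 1 of the arrays was under the filter. Most Fmod probe sets have names that mark probes which may also bind other transcripts. The brightest Prelp probe set, 1416321_s_at, and the second Aspn probe set, 1448421_s_at, also have such names. Without PTIP +/+ replicate 2 the genotype change of Fmod was -0.01. Between numbers Fmod differed by 1.49 ± 0.78 (SE; limma adjusted p = 0.362), 5.55-fold higher in number 2 in PTIP +/+ and 1.42-fold higher in PTIP -/-.

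The Fmod number difference depended on the probe set. Signals on 1415939_at were 28.1 and 123.3 in PTIP -/- against 47.8 and 587.4 in PTIP +/+, so that both arrays numbered 2 stood above both arrays numbered 1. The same order held on 1456084_x_at and 1437685_x_at. These 3 probe sets gave number changes of 2.88, 3.16 and 3.13 and, in the PTIP -/- pair, bounds of at least 2.59-fold, 2.34-fold and 2.59-fold for the excess of number 2. On 1437324_x_at and 1438966_x_at both PTIP -/- arrays lay under the filter. With the mean of its probe sets, Fmod differed by 2.20 between the numbers (limma adjusted p = 0.293, and 0.0614 to 0.704 over all settings).

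Omd encodes osteomodulin, or osteoadherin, an acidic member made by bone-forming cells that binds hydroxyapatite. Its single probe set read 891.8 and 1614.5 in PTIP -/- against 501.4 and 1614.9 in PTIP +/+. The arrays numbered 2 were nearly equal, and both were above both arrays numbered 1. In number 1, PTIP -/- was 1.78-fold higher, and the genotype change over all arrays was 0.42 ± 0.70 (SE; limma adjusted p = 0.999).

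By number, the mean log2 signal of Omd was 9.39 ± 0.59 (SD, n = 2) in number 1 and 10.66 ± 0.0003 (SD, n = 2) in number 2. The change of 1.27 ± 0.34 (SE), 2.41-fold, had an unadjusted p of 0.0165 and a limma adjusted p of 0.169. It was 1.81-fold in PTIP -/- and 3.22-fold in PTIP +/+.

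Lum and Kera, the remaining second-class members, encode lumican and keratocan, which keep collagen fibrils evenly spaced in the cornea. Lum read 52.0 and 31.7 in PTIP -/- against 37.9 and 61.6 in PTIP +/+, with 1 array of each genotype above 47.68, so its mean of 44.29 fell just outside the filter. The closest tested member was Fmod, with a mean of 115.91. Kera read 4.1, 1.6, 2.6 and 8.5 in that order, under the filter on all 4 arrays, and supports no fold in either direction.

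Ogn, of the third class, was the one member called in the fit without a block. Ogn encodes osteoglycin, also called mimecan, a small member that carries keratan sulfate in the cornea and was first taken from bone. It read 834.1 and 7450.9 in PTIP -/- against 836.4 and 7933.0 in PTIP +/+. Arrays of the same number were nearly equal, and those of different numbers were far apart.

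The mean log2 signal of Ogn was 9.71 ± 0.0028 (SD, n = 2) in number 1 and 12.91 ± 0.06 (SD, n = 2) in number 2. It rose by 3.20 ± 0.19 (SE) on the log2 scale, with a limma adjusted p of 0.0269, and was 8.93-fold higher in number 2 in PTIP -/- and 9.48-fold higher in PTIP +/+. Its other probe set, 1419662_at, read 675.3 and 6882.2 in PTIP -/- against 598.1 and 7986.5 in PTIP +/+, 11.7-fold higher in number 2 (limma adjusted p = 0.025 over all probe sets). Over 14 other settings of the fit, the limma adjusted p of Ogn ran from 0.0063 to 0.19 and passed in 9. Leaving out PTIP -/- replicate 1, PTIP +/+ replicate 1 or PTIP +/+ replicate 2 gave 0.124, 0.139 and 0.0894.

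By genotype Ogn differed little on these arrays. The log2 change was -0.05 ± 1.58 (SE; limma adjusted p = 0.999), and this error holds the whole number difference. The PTIP -/- array differed by -0.004 on the log2 scale in number 1 and was 1.06-fold lower in number 2, and the second probe set gave 1.13-fold higher and 1.16-fold lower. Epyc, for epiphycan of growth plate cartilage, read 3.6 and 31.9 in PTIP -/- against 1.2 and 30.4 in PTIP +/+, below the filter on all 4 arrays.

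**Figure D3:**
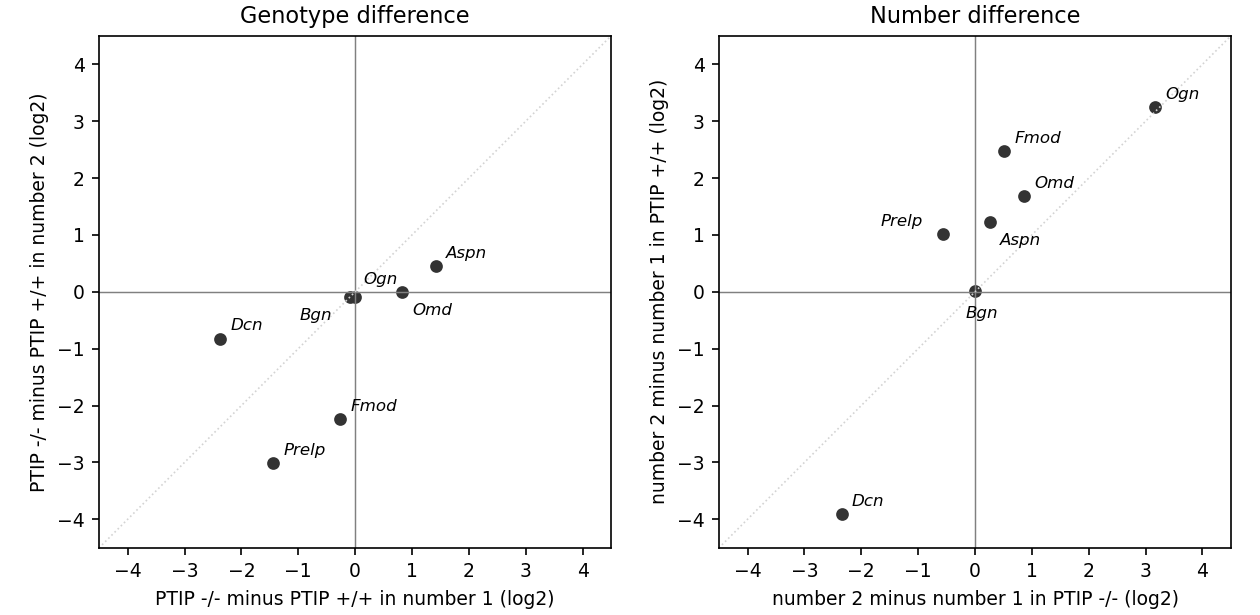
Log2 differences of the 7 tested genes, after single signals under 47.68 were raised to it. The left panel sets the genotype difference in number 2 against that in number 1, and the right panel sets the number difference in PTIP +/+ against that in PTIP -/-. The dotted line marks equal values. Ogn lies near that line at 3.16 and 3.25 in the right panel, and Prelp is at -0.56 and 1.02 there.

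Counted over all genes, the genotype test in limma called 0 of the 7 members, 0 lower and 0 higher in PTIP -/-, against 0% of 12509 genes called lower and 0% called higher. Without a block, an unadjusted p under 0.05 was reached by 286 genes, among them 1 member, Prelp. With the number as a block in limma, 982 genes reached it, among them Dcn (unadjusted p = 0.000653) and Prelp (unadjusted p = 0.0112). After adjustment 0 genes passed in that fit. A fit without moderation of the variances also called 0 genes. Of the 7 members, 5 were lower and 2 higher in PTIP -/-, and their median log2 change was -0.10 against 0.05 for all genes tested, and with quantile normalization Bgn turned and the split was 4 and 3. Centring each array on its median moved the median of all genes by -0.18 in the genotype comparison and by 0.19 in the number comparison, and quantile normalization moved them by -0.04 and 0.03. Changes of that size are read beside these shifts.

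The number test in limma called 1 member higher in number 2, Ogn, where 0.488% of all genes were called (61 genes). It called 0 members higher in number 1, where 0.168% of genes were called (21 genes). An unadjusted p under 0.05 was reached by 3 members, Dcn, Omd and Ogn, and by 2546 genes in all. Without moderation 0 genes were called by number, which holds for every call of this fit given here, Ogn included. Leaving out single arrays also changed which genes were called, as given at the end. Calls from every probe set, with genotype as a block or under another scaling were not refitted in these ways. Of the 7 members, 6 were higher in number 2 and 1 higher in number 1, with a median of 0.74 against -0.05 for all genes tested, and quantile normalization made this 5 and 2 through Bgn.

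Single pairs of arrays carry no test and were read by a 2-fold limit, with signals under 47.68 raised to it. In number 1, Dcn and Prelp were past 2-fold lower in PTIP -/-, 2 of 7 members beside 2.09% of all genes, and Aspn past 2-fold higher, 1 of 7 beside 2.57%. In number 2, Prelp and Fmod were past 2-fold lower, 2 of 7 beside 4.28%, and 0 of 7 were past 2-fold higher, beside 5.75%. On the brightest probe sets, Prelp was the one member past 2-fold in the same direction in both numbers. The second Aspn probe set was past it too, at 2.93-fold higher in number 1 and 2.17-fold higher in number 2. The second Prelp probe set was under the filter on both arrays of number 1. On measured signals Dcn would join Prelp, at 4.52-fold lower in number 2.

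Between the numbers, the 2-fold counts in PTIP -/- and PTIP +/+ were not tested against each other. In PTIP -/-, Ogn was past 2-fold higher in number 2, 1 of 7 members beside 7.39% of all genes, and Dcn past 2-fold higher in number 1, 1 of 7 beside 6.29%. On 3 of its other probe sets Fmod would join Ogn, at 2.34-fold or more, so this count depends on the Fmod probe set used. In PTIP +/+, Fmod, Omd, Ogn, Prelp and Aspn were past 2-fold higher in number 2, 5 of 7 beside 7.78%, and Dcn higher in number 1, 1 of 7 beside 7.76%. The second Aspn probe set was 1.36-fold higher in number 2 in PTIP +/+, so the place of Aspn depends on the probe set used. Prelp was near the limit there, at 2.02-fold. The median log2 difference of the members was 0.26 in PTIP -/- and 1.23 in PTIP +/+. The genotype and number comparisons use the same 4 arrays, and the pairs share arrays with each other, so these counts are not separate measurements.

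Neighbouring genes were set beside the members along each chromosome. On chromosome 13 the order is Cenpp, Ecm2, Aspn, Omd, Ogn and Nol8. From number 1 to 2 the log2 change was 0.74 for Aspn, 1.27 for Omd and 3.20 for Ogn. Outside the 3 members it was -0.19 for Ecm2, itself a relative of the family, -0.16 for Cenpp, a centromere protein, and -1.03 for Nol8, a nucleolar protein (limma adjusted p = 0.16). Both PTIP -/- signals of Ecm2 were under the filter. Nol8, next to Ogn, was higher in number 1 in both genotypes, at 637.9 and 341.1 in PTIP -/- against 555.1 and 247.8 in PTIP +/+, opposite in direction to Ogn.

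On chromosome 10, Dcn stands first of 4 family genes and was the one of them above the filter. Btg1, a growth-inhibiting gene on its other side, read 2791.8 and 4268.5 in PTIP -/- against 4298.0 and 2794.6 in PTIP +/+, with no common direction between the numbers. Atp2b1, a calcium pump beyond Epyc, was higher in number 1 in both genotypes, with a log2 change of -1.19 (limma adjusted p = 0.105). On chromosome 1, Btg2, an antiproliferative gene next to Fmod, read 238.0 and 1260.9 in PTIP -/- against 212.7 and 1262.4 in PTIP +/+. Btg2 rose by 2.49 on the log2 scale from number 1 to 2 (limma adjusted p = 0.0341), by 2.41 in PTIP -/- and 2.57 in PTIP +/+, beside 0.50 and 2.47 for the brightest Fmod probe set. On 1415939_at the Fmod values were 2.13 and 3.62 as measured.

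**Figure D4:**
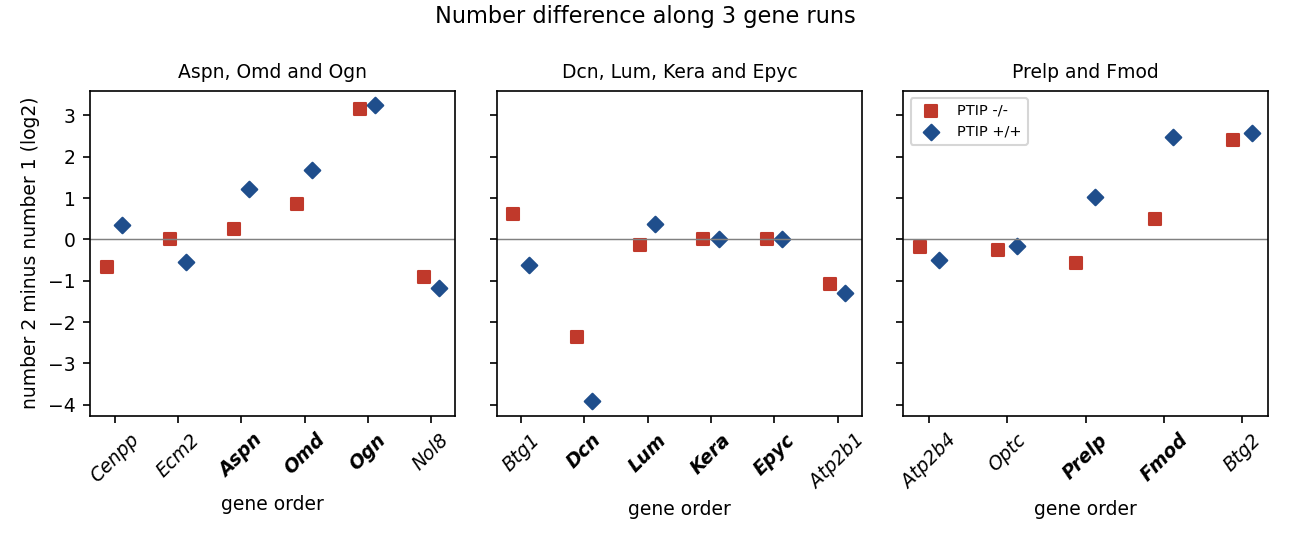
Log2 difference between number 2 and number 1 in PTIP -/- (red squares) and PTIP +/+ (blue diamonds) along 3 runs of genes in chromosome order, members in bold, with single signals under 47.68 raised to it. Ogn lies above 3 in both genotypes while Nol8 beside it lies below 0, and Kera and Epyc are at 0 because all their signals were under the filter.

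Other genes of the matrix around these proteoglycans were read by list. Of 9 further family members, 7 had a probe set and 3 were tested, with 1 higher and 2 lower in PTIP -/- and 0 passing. Nyx, for nyctalopin of the retina, differed most by genotype, at 118.5 and 103.3 in PTIP -/- against 75.4 and 57.4 in PTIP +/+, a log2 change of 0.75 ± 0.28 (SE). Podn, for podocan, differed most by number, -1.09 ± 0.24 (SE; limma adjusted p = 0.137). By mean log2 signal all 3 tested relatives, Ecm2, Podn and Nyx, were higher in number 1 as deposited and 2 of 3 under either other scaling, and 0 passed. Ecm2 read 37.7 and 42.5 in PTIP -/-, both under the filter, against 71.4 and 48.8 in PTIP +/+. Only its PTIP +/+ pair was higher in number 1.

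The collagens and fibril regulators that these proteins bind had 18 of 18 genes tested. By genotype 13 were lower and 5 higher in PTIP -/-, 0 passed, and the median was -0.31, with 13 and 5 after quantile normalization and 15 and 3 after median centring. Col11a1, a chain of the type XI collagen that starts fibrils, differed most in both comparisons. It read 64.1 and 965.6 in PTIP -/- against 291.6 and 4752.2 in PTIP +/+, so it was higher in number 2 in both genotypes and lower in PTIP -/- in both numbers. Its number change was 3.97 ± 1.09 (SE), 15.7-fold (limma adjusted p = 0.176). By number 10 genes of the list were higher in number 2 and 8 in number 1 (9 and 9 after quantile normalization). As deposited 0 passed, and 1 passed as higher in number 1 under either other scaling. Of all 12509 genes, 37 passed that way after quantile normalization and 90 after median centring.

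Enzymes that build the sugar chains gave 1 call as deposited. Of 26 genes for the linker and for chondroitin and dermatan sulfate, 23 were tested. By genotype 11 were higher and 12 lower in PTIP -/- (6 and 17 after median centring), and 0 passed in either comparison as deposited. After median centring 2 passed as higher in number 2 and 1 as higher in number 1, beside 271 and 90 of all 12509 genes. Chst7, a chondroitin sulfotransferase, read 203.2 and 1526.5 in PTIP -/- against 284.1 and 4902.0 in PTIP +/+, the list's largest genotype change at -1.08 ± 1.76 (SE). Chst15, a sulfotransferase for disulfated chondroitin, read 303.5 and 21.6 in PTIP -/- against 993.6 and 8.6 in PTIP +/+, at least 11.5-fold higher in number 1 (limma adjusted p = 0.0817).

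Of 9 keratan sulfate genes 8 were tested, with 2 higher and 6 lower in PTIP -/- and 0 passing by genotype. Chst2, a sulfotransferase acting on N-acetylglucosamine, passed by number. It read 409.1 and 82.1 in PTIP -/- against 549.9 and 65.3 in PTIP +/+, and it fell by 2.70 on the log2 scale from number 1 to 2, 6.48-fold (limma adjusted p = 0.0497). Chst5, of the same enzyme family, had the largest genotype change, 1.87 ± 0.87 (SE), with 1 PTIP +/+ array under the filter. By number 5 of the 8 genes were higher in number 2 and 3 in number 1, with a median of 0.53, and Chst2 was the one that passed.

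Ligands and receptors bound by the family had 17 of 19 genes tested, with 8 higher and 9 lower in PTIP -/- (10 and 7 after quantile normalization). As deposited 0 passed in either comparison. After median centring 1 passed as higher in number 2, beside 271 of all 12509 genes. Tgfbr3, or betaglycan, a co-receptor for TGF-beta, read 549.2 and 396.2 in PTIP -/- against 1868.9 and 1671.3 in PTIP +/+, without overlap. It was 3.79-fold lower in PTIP -/-, a log2 change of -1.92 ± 0.30 (SE; limma adjusted p = 0.999). Bmp4, a bone morphogenetic protein, read 50.4 and 4839.2 in PTIP -/- against 152.8 and 19304.5 in PTIP +/+. It was 110-fold higher in number 2, a log2 change of 6.78 ± 0.88 (SE) that did not pass (limma adjusted p = 0.074).

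Other proteoglycans had 15 of 23 genes tested, with 6 higher and 9 lower in PTIP -/- and 0 passing by genotype. Acan, for aggrecan of cartilage, had the largest genotype change, -1.55 ± 0.48 (SE; limma adjusted p = 0.999), with 1 PTIP -/- array under the filter. Vcan was nearly tied in the other direction, at 1.54 ± 1.48 (SE; limma adjusted p = 0.999). With signals raised to the filter, Acan differed 2.58-fold and Vcan 2.92-fold. By number 1 gene passed, Gpc1, for the membrane-anchored glypican-1, which read 90.8 and 1522.9 in PTIP -/- against 109.8 and 2502.5 in PTIP +/+. Gpc1 rose by 4.29 on the log2 scale from number 1 to 2, 19.6-fold (limma adjusted p = 0.0337).

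Proteases reported to cut these proteins had 9 of 12 genes tested, with 6 higher and 3 lower in PTIP -/-. By number 8 were higher in number 2 and 1 higher in number 1. In either comparison 0 passed as deposited. After median centring 1 passed as higher in number 2, beside 271 of all 12509 genes. Adamts4, an aggrecan-cutting protease, read 276.8 and 621.6 in PTIP -/- against 188.3 and 138.7 in PTIP +/+, a genotype change of 1.36 ± 0.49 (SE). Adamts5, its close relative, read 169.8 and 2456.1 in PTIP -/- against 268.2 and 9359.2 in PTIP +/+, 22.5-fold higher in number 2 (limma adjusted p = 0.0975). The median change of this list between genotypes was 0.45.

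Genes whose pattern over the 4 arrays lay closest to 2 of the members were also listed, by Euclidean distance between log2 signals centred on their own mean. Dcn spanned 6.08 on the log2 scale, and the nearest were Medag at a distance of 0.87, Plxnc1 at 1.30 and Tmem200a at 1.35. Medag, known for its part in fat cell formation, read 575.2 and 42.9 in PTIP -/- against 1411.1 and 152.2 in PTIP +/+, the order of Dcn. Bgn spanned 0.11, and the nearest were Hspa8 at 0.025, Ltn1 at 0.0273 and Psma6 at 0.0317, all level genes. With 4 arrays, these distances are descriptions only.

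Markers of cell identity were read beside the number differences of Dcn and Ogn, and 0 of them passed by number in limma as deposited. After median centring 1 cartilage marker passed as higher in number 2 and 1 tendon marker as higher in number 1. Of all 12509 genes, 271 and 90 passed in those directions under that scaling. The summed signal of the 5 tendon markers, of which 4 were tested, was 1655.1 and 2210.4 in number 1 and 423.8 and 256.8 in number 2, in PTIP -/- and PTIP +/+. Most of it in number 1 came from Tnmd, tenomodulin of tendon cells, which read 1359.0 and 1895.5 in number 1 and 48.8 and 5.8 in number 2. Thy1, a surface protein of fibroblasts, read 14822.9 and 16080.1 in number 1 and 1500.7 and 239.2 in number 2, and Pdgfra, a growth factor receptor of mesenchymal cells, 3563.4 and 5010.1 against 174.2 and 583.2. These 3 genes were picked from their lists after their values were seen, and their limma adjusted p values were 0.101, 0.121 and 0.104.

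The lists as wholes did not follow these genes. Of 12 fibroblast markers 5 were higher in number 2 and 7 in number 1, with a median of -0.03 (8 and 4 after median centring), and Twist1 and Fap differed by 0.73 and 0.49. Of the 4 tested tendon markers 3 were higher in number 1, while Scx, a tendon transcription factor, differed by 0.73 the other way. Summed over all its genes with a probe set, the fibroblast list ran from 133862.3 to 170224.9, with the numbers overlapping. The cartilage list (6 of 10 genes tested) ran from 682.7 to 755.7, the bone list (2 tested of 5 with a probe set) from 266.4 to 546.3 and the endothelium list (2 of 6) from 226.2 to 360.0, also overlapping.

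Sums of the other marker lists did not overlap between the numbers as deposited. With 2 arrays against 2, an exact permutation test of such a gap cannot give a two-sided p below 0.333. The smooth muscle list (6 of 6) summed to 60592.8 and 61860.1 in number 1 and 65445.7 and 65514.4 in number 2, most of it from Acta2 and Tagln. Its split was 4 higher in number 2 and 2 in number 1, and quantile normalization turned this to 2 and 4. White blood cell markers (5 of 6) summed to 954.2 and 776.8 in number 1 and 705.7 and 537.3 in number 2, and epithelial markers (4 of 6) to 869.1 and 638.5 against 580.5 and 496.9. Both lists ranked the arrays as the array medians did, 97.8 and 83.2 in number 1 and 82.5 and 75.8 in number 2. What part these markers, Thy1 and Pdgfra have in the number differences of Dcn, Ogn and Omd was not tested.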

How the data were processed

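Intensities from 4 Affymetrix arrays were used as deposited. The submitters' processing notes name RMA without a version, but the authors' deposited intensities are linear, with 1 value of 0 (set to 0.1 here) and a mean of 500 on every array after the top and bottom 2% were left out. The probe sets numbered 45101, and 64 controls were left out. Of the rest, 34945 had 1 symbol, 932 several and 9160 none, and 34741 were named through the RefSeq gene table of GRCm38.p6. Each of 18193 genes was read from its probe set with the highest mean log2 signal, and 12509 were tested.

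Genotypes and numbers were each compared on all 4 arrays in limma 3.58.1 (R 4.3.3, lmFit and eBayes, two-sided, 2 residual degrees of freedom), with Benjamini-Hochberg adjustment over those genes and a threshold of 0.05. The script was tested on simulated data. For a fold given as "at least", every single signal below 47.68 was raised to it before any mean was taken. Named genes are the members, each list's gene with the largest change in each comparison, the 3 nearest profiles of the brightest and the most variable member, and chromosome neighbours. Vcan was added for its near tie with Acan. Members and lists were chosen with earlier results of these data known.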

Additional observations from a re-analysis of the deposited data

Results flagged for a closer look

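Prelp differed between the numbers in opposite directions in the 2 genotypes, by -0.56 on the log2 scale in PTIP -/- and by 1.02 in PTIP +/+, each from 1 array against 1. That difference between the genotypes was not tested.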

How the results depend on the processing

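The deposited values were refitted under 14 other settings. In the genotype comparison, 0 genes and 0 members were called under every setting, the replicate block included (982 genes at an unadjusted p under 0.05 with the block, 286 without). The median change of the members (-0.10) was -0.0154 after quantile normalization, -0.27 after median centring and -0.0579 with probe sets of a gene averaged. With single arrays left out it ran from -0.4304 to -0.0143. Without the level filter, where Lum, Kera and Epyc enter, it was -0.17. With the filter at the 60th percentile, where Fmod drops out, it was -0.0716. In the number comparison the 82 genes called became 127 (quantile normalization), 361 (median centring), 0 (no level filter), 145 (60th percentile), 226 (signals raised to the filter), 284 (variance trend and robust moderation), 0 (no moderation), 51 (mean of probe sets) and 143 (every probe set), and 0 to 85 with single arrays left out. The 1 member called became 0 without the filter, 0 without moderation, 2 (Ogn and Dcn) with genotype as a block, and 0 to 1 with single arrays left out. The fit with genotype as a block called 80 of 12509 genes, against 82 without it. Bgn reversed after quantile normalization, to 0.0602 by genotype and -0.0618 by number. By number it ran from -0.0376 to 0.0627 with single arrays left out (-0.0333 without PTIP -/- replicate 1). With single arrays left out, the genotype change ran from -1.67 to 1.58 for Ogn (1.53 without PTIP -/- replicate 1) and from -0.43 to 1.26 for Omd (-0.0129 without PTIP -/- replicate 2), and the number change of Prelp from -1.28 to 1.73 (-0.49 without PTIP -/- replicate 1). Members past 1.5-fold higher in PTIP -/- in number 1 were 2, against 1 past 2-fold. The cause was not tested in any of these. All other changes of single members kept their direction and side of the threshold, apart from 5 settings in which Ogn did not pass by number and 1 in which Dcn did. The genotype change of Prelp ran from -2.74 to -1.72, with limma adjusted p from 0.601 to 1. Across genes, deviations from the genotype means of same-numbered arrays correlated at 0.686. With 2 pairs, the numbers are not taken to pair the samples. Signals near or under 47.68 (Lum, Kera, Epyc, most Fmod probe sets) limit what can be read from them. Measured signals in place of raised ones, chosen after seeing the data, made 3 members rather than 2 past 2-fold lower in number 2.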
